A study of Mus musculus with 12 samples.

Results

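The HES and HEY genes and Nrarp are the genes most often read as direct output of Notch signalling, and 8 of them were described here by name: Hes1, Hes5, Hes6, Hes7, Hey1, Hey2, Heyl and Nrarp. Each name had 1 row of its own among the 37750 gene rows of the table, and none shared a row with another gene. The 12 libraries came from Ad/NICD mice of a 129 x C57BL/6 background, whose adipocytes carry the freed intracellular domain of Notch1 (NICD), which signals without a ligand. Of these, 8 were liposarcomas (LPS), malignant tumours of the fat lineage, from animals 9 to 12 months old. They were set against 4 samples of white fat (white adipose tissue, WAT) taken at 3 weeks of age from animals with the same transgene, so both groups carry it and mice without it were not analysed here. The labels call the libraries of each group biological replicates. Tissue and age change together, and their parts in any difference cannot be told apart. In bulk tissue, fewer cells of a type and less RNA per cell cannot be told apart either.

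When a ligand binds a Notch receptor, the intracellular domain is cut free, enters the nucleus and joins the DNA-binding protein RBPJ and a Mastermind co-activator to switch on target genes. HES and HEY proteins are basic helix-loop-helix repressors among those targets, and they silence genes of differentiation by recruiting co-repressors. For HES proteins these include the TLE proteins. Nrarp, a small ankyrin repeat protein, is also a target and acts back on the complex to restrain it. Not every family member is a Notch target: Hes6 is known as an antagonist of Hes1. In blood vessels, Hey1 and Hey2 are known from arterial endothelium and Heyl from pericytes and smooth muscle, the cells that wrap vessels.

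The deposited values are FPKM, fragments scaled to transcript length and library size, so levels of different genes can be set side by side. FPKM sums ran from 771665 to 996090 per library, and the fragment totals behind them are unknown here. LPS 5 read low as a whole, with a median ratio of 0.814 to the geometric mean over libraries, against 0.991 to 1.06 in the others. In the row of Notch1, reads of the transgene and of the endogenous receptor gene cannot be told apart. It measured 44.2 FPKM at the lowest, 61.8 at the median and 84.6 at the highest in LPS, against 25.0, 29.9, 24.5 and 39.5 FPKM in WAT 1 to WAT 4. The summed level of 15 mature adipocyte markers was 127 to 2250 FPKM in LPS and 14317 to 17135 FPKM in WAT, and Adipoq, their defining adipokine, was 0.0433 to 4.26 FPKM in LPS. Skeletal muscle markers (5 genes summed) reached 1754 FPKM in WAT 1 and 1493 FPKM in WAT 4, against 5.74 FPKM in WAT 2 and 213 FPKM in WAT 3.

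Promoter sequence from RefSeq (GRCm38.p6) was at hand for 5 of the 8 genes, namely Hes5, Hes6, Hes7, Hey2 and Nrarp; Hes1, Hey1 and Heyl are named only. The 250 bases before each start site were searched on both strands for the RBPJ letters GTGGGAA, the N-box CACNAG and the palindromic E-box CACGTG, the last 2 being letters that HES and HEY proteins are known to bind. The RBPJ letters occurred in 5.42% of 32817 such promoters and at least 2 times in 0.162%. Hes5 held 2 matches, at positions -226 and -83 from the start site and on opposite strands. Hey2 held 1 match at -207 and Hes7 held 1 at -180. The Hes5 match at -83 and the Hes7 match lie inside the locus of the measured row, which begins before the RefSeq start site. Nrarp and both listed Hes6 start sites held none, and Nrarp held 1 palindromic E-box at -108, letters present in 6.02% of promoters. The N-box was present in 36.7% of promoters and at least 2 times in 8.18%. It occurred 2 times in Nrarp, 1 time in Hes7 and 1 time at 1 of the Hes6 start sites. The windows of Hes5 and Hey2 held none. The N-boxes of Hes7 and Hes6 also lie inside the locus of the measured row. Of the genes holding the RBPJ letters, Hes5 and Hes7 were below 1 FPKM in all 12 libraries and Hey2 was among those that rose. Nrarp, without these letters, also rose, and Hes6 was not called. Hes1, Hey1 and Heyl could not be placed, and no other form of the RBPJ letters was searched. With 5 genes, no relation of the letters to level or change was tested. Capitals mark the RBPJ letters or, in Nrarp, the E-box (its N-boxes are left in lower case), and each line reads 5′ to 3′ on the gene's strand. A match describes letters in the window and is not evidence of binding.
Hey2, chr10:30842802-30843033, minus strand: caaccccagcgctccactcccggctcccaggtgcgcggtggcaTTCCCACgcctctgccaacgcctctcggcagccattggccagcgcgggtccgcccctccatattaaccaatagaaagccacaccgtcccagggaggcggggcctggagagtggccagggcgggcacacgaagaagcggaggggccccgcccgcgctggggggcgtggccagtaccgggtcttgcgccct
Nrarp, chr2:25180508-25180757, plus strand: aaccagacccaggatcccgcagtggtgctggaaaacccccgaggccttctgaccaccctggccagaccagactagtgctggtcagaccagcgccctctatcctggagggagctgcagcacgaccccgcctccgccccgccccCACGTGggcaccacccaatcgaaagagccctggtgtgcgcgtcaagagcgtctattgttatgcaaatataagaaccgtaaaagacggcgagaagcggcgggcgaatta
Hes5 at -226, chr4:154960685-154960714, plus strand: agggcgagcgcgTTCCCACagcccggacat
Hes5 at -83, chr4:154960828-154960857, plus strand: tggccgccgagtGTGGGAAcggccgcggcg
Hes7 at -180, chr11:69120261-69120290, plus strand: tcctcccctcacTTCCCACatttggggcta

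The comparison of LPS with WAT asks how the levels of these genes in established tumours compare with those in young fat under the same transgene. Notch signalling itself was not measured. Of the 8 genes, 5 rose in the tumours (Heyl, Hey1, Hey2, Nrarp and Hes1), Hes6 passed the filter without a call, and Hes5 and Hes7 lay below the filter of at least 1 FPKM in at least 4 libraries. Calls rest on limma at a Benjamini-Hochberg adjusted p below 0.05, and 18.9% of all 14821 rows tested were called higher in LPS by the same rule. For these 5 genes every LPS library lay above every WAT library, as it did for 11.8% of all rows tested. The median log2 difference of all rows tested was -0.05, and the 5th and 95th percentiles were -2.24 and 1.50. All 5 calls held in each of the 19 alternatives run, the fit without LPS 5 among them.

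**Figure D1:**
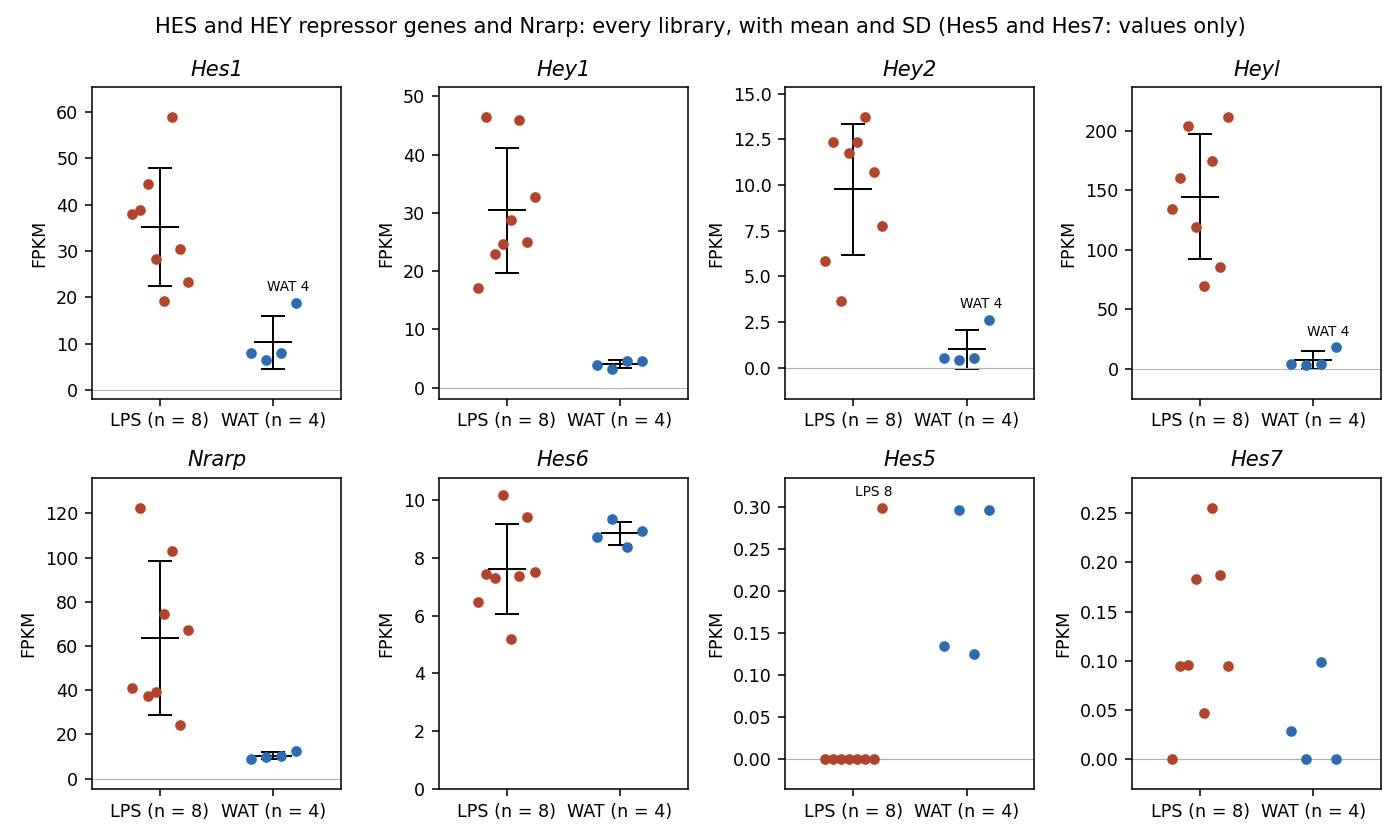
Level in FPKM (vertical axes, each with its own scale) of the 8 genes in every LPS library (left of each panel, n = 8) and every WAT library (right, n = 4); points are libraries, the long bar is the mean and the capped bar the SD, left out for Hes5 and Hes7. In the panels of Hes1, Hey1, Hey2, Heyl and Nrarp all LPS points lie above all WAT points, and WAT 4 stands above the other WAT libraries for Hes1, Hey2 and Heyl.

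Heyl, the HEY repressor of vascular smooth muscle and pericytes (chromosome 4, 123233556 to 123249875, GRCm38), showed the largest difference of the 8 genes. It measured 69.4 FPKM at the lowest (LPS 5), 147 FPKM at the median and 211 FPKM at the highest (LPS 8) in LPS, against 3.71, 3.20, 3.99 and 18.0 FPKM in WAT 1 to WAT 4. The lowest tumour was thus 3.86-fold above the highest WAT library, and the groups did not overlap. The means were 145 ± 52.3 FPKM in LPS (SD, n = 8) and 7.22 ± 7.19 FPKM in WAT (SD, n = 4), a 20.1-fold ratio. The log2 difference on log2(FPKM + 1), a scale that understates the change of low genes, was 4.38 ± 0.41 (SE), with a limma adjusted p = 1.73e-06. Only 0.169% of all rows tested had a difference at least as large, Heyl itself standing at rank 25. WAT 4 carried much of the WAT mean: without it the other 3 WAT libraries averaged 3.63 FPKM, the ratio of means became 39.9-fold and the log2 difference 4.89.

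Hey1 and Hey2, the repressors known for the arterial side of the vessel wall and for the heart, also rose. Hey1 (chromosome 3, 8663362 to 8667039) measured 17.1, 26.8 and 46.4 FPKM at the lowest, median and highest in LPS, against 3.82, 3.27, 4.63 and 4.63 FPKM in WAT 1 to WAT 4. Its WAT libraries lay close together, and the lowest tumour, LPS 1, was 3.69-fold above the highest of them. Its log2 difference was 2.57 ± 0.24 (SE), with a limma adjusted p = 1.57e-06. Hey2 (chromosome 10, 30832359 to 30842801) measured 3.63, 11.2 and 13.7 FPKM at the lowest, median and highest in LPS, against 0.522, 0.419, 0.514 and 2.62 FPKM in WAT 1 to WAT 4. The lowest tumour was LPS 3, and it was 1.39-fold above WAT 4, so the gap between the groups was narrow at that point. The log2 difference of Hey2 was 2.45 ± 0.34 (SE), with a limma adjusted p = 6.09e-05. Hey2 passed the filter through the tumours, since WAT 4 was its only WAT library at 1 FPKM or more. Its ratio of means was 9.59-fold, and 20.1-fold without WAT 4.

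Hes1 (chromosome 16, 30064384 to 30067796), the HES family member that Notch switches on in many tissues, rose the least of the 5. It measured 19.2 FPKM at the lowest (LPS 5), 34.2 FPKM at the median and 58.8 FPKM at the highest (LPS 6) in LPS, against 8.07, 6.45, 8.06 and 18.8 FPKM in WAT 1 to WAT 4. LPS 5 stood only 1.02-fold above WAT 4, while the other 7 tumours began at 23.4 FPKM. The means were 35.2 ± 12.7 FPKM in LPS (SD, n = 8) and 10.3 ± 5.69 FPKM in WAT (SD, n = 4), and the log2 difference was 1.71 ± 0.30 (SE), with a limma adjusted p = 0.000470. Without WAT 4 the log2 difference was 2.01.

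WAT 4 therefore held the highest WAT level of Heyl, Hey2 and Hes1, at 4.95, 5.40 and 2.50 times the mean of the other 3 WAT libraries. For Hey1 and Nrarp the same ratio was 1.19 and 1.31. Notch1 was also highest there, at 39.5 FPKM against 24.5 to 29.9 FPKM in the other WAT libraries. Of 13 pericyte and smooth muscle markers, WAT 4 was the highest WAT library for 7, the lowest for 4 and between the others for 2, and their summed level was 375 FPKM in WAT 4 and 306 to 339 FPKM in the other WAT libraries. Among those highest in WAT 4 were the receptor gene Notch3 (42.8 FPKM, against 20.7 to 23.2) and Myh11, the smooth muscle myosin (26.0 FPKM, against 10.7 to 13.2). Among those lowest there were Cspg4, the NG2 proteoglycan (13.5 FPKM, against 22.7 to 29.1), and the adhesion molecule gene Mcam (38.8 FPKM, against 44.1 to 54.8). The skeletal muscle markers given above were high in WAT 4 and WAT 1. The part of these cell types in the WAT 4 values was not tested.

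Nrarp (chromosome 2, 25180758 to 25183330), the ankyrin repeat inhibitor that feeds back on the Notch complex, rose with the widest spread between tumours. It measured 24.2 FPKM at the lowest (LPS 7), 54.0 FPKM at the median and 122 FPKM at the highest (LPS 2) in LPS, against 8.89, 9.92, 10.1 and 12.6 FPKM in WAT 1 to WAT 4. The highest tumour was 5.05-fold above the lowest, compared with 2.71-fold to 3.78-fold for Hes1, Hey1, Hey2 and Heyl. The means were 63.5 ± 34.8 FPKM in LPS (SD, n = 8) and 10.4 ± 1.57 FPKM in WAT (SD, n = 4), a 6.13-fold ratio, and the log2 difference was 2.33 ± 0.37 (SE), with a limma adjusted p = 0.000196.

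Hes6 (chromosome 1, 91411483 to 91414038), known as an antagonist of Hes1 that does not need Notch for its expression in the nervous system, did not follow the others. It measured 5.20, 7.40 and 10.2 FPKM at the lowest, median and highest in LPS, against 8.73, 9.34, 8.36 and 8.91 FPKM in WAT 1 to WAT 4. The groups overlapped, with 2 tumours (LPS 4 and LPS 7) above the highest WAT library. The log2 difference of Hes6 was -0.21 ± 0.14 (SE) and not called (limma adjusted p = 0.249). It stayed negative and without a call in the 19 alternatives, between -0.27 and -0.11.

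Hes5, a Notch target best known from neural progenitors, and Hes7, the oscillator of the somite clock, were at or near 0 throughout. Hes5 (chromosome 4, 154960770 to 154962371) was listed at 0 in LPS 1 to LPS 7 and at 0.299 FPKM in LPS 8, against 0.135, 0.297, 0.126 and 0.297 FPKM in WAT 1 to WAT 4. LPS 8 thus lay at the level of the highest WAT libraries. A listed 0 can be a failed estimate in such tables. The exact permutation test over the 12 libraries gave a two-sided p = 0.0485 for Hes5 with no adjustment, where the smallest possible value is 0.00404. With no filter on low values limma called Hes5 lower in LPS (adjusted p = 0.0349), as it did 19.4% of the 27793 rows then tested. Hes7 (chromosome 11, 69120054 to 69124055) measured 0, 0.0954 and 0.255 FPKM at the lowest, median and highest in LPS, against 0.0290, 0, 0.0988 and 0 FPKM in WAT 1 to WAT 4. The groups overlapped (exact permutation two-sided p = 0.0848, n = 8 and n = 4). One fragment on a transcript of the length of Hes7 was worth roughly 0.0275 FPKM in LPS 6, the library with the highest Hes7, and 0.0335 FPKM in WAT 3, the highest of WAT, so these values rest on few fragments.

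The order of levels within a library differed between tumours and fat. In LPS the order of means was Heyl (145 FPKM), Nrarp (63.5), Hes1 (35.2), Hey1 (30.4), Hey2 (9.76), Hes6 (7.60), Hes7 and Hes5. Heyl was above Nrarp in 7 of 8 tumours, LPS 5 being the exception, and Hey1 was above Hey2 in 8 of 8. Nrarp was above Hes1 in 6 of 8 tumours, Hes1 above Hey1 in 5 of 8 and Hey2 above Hes6 in 6 of 8, so the members of these pairs were not parted beyond the spread between tumours. In WAT the means of Nrarp (10.4 FPKM), Hes1 (10.3), Hes6 (8.83) and Heyl (7.22) lay together, and the placing of Hes1 over Hes6 and of Heyl over Hey1 held in WAT 4 alone. Below them Hey1 (4.09 FPKM) was above Hey2 (1.02 FPKM) in 4 of 4 libraries.

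The make-up of the family changed accordingly. The summed level of the 7 HES and HEY genes was 135 to 301 FPKM in LPS and 23.0 to 53.3 FPKM in WAT, WAT 4 being the highest of WAT. Heyl made up 51.4% to 74.7% of that sum in LPS, against 13.9% to 15.5% in WAT 1 to WAT 3 and 33.8% in WAT 4. Hes6 made up 2.45% to 5.83% in LPS and 16.7% to 40.6% in WAT. Hes1 made up 8.25% to 19.5% in LPS and 28.1% to 35.3% in WAT. The share of Hey1 overlapped between the groups, at 8.10% to 21.3% in LPS and 8.70% to 18.0% in WAT. These shares follow from the levels above and were given no test.

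**Figure D2:**
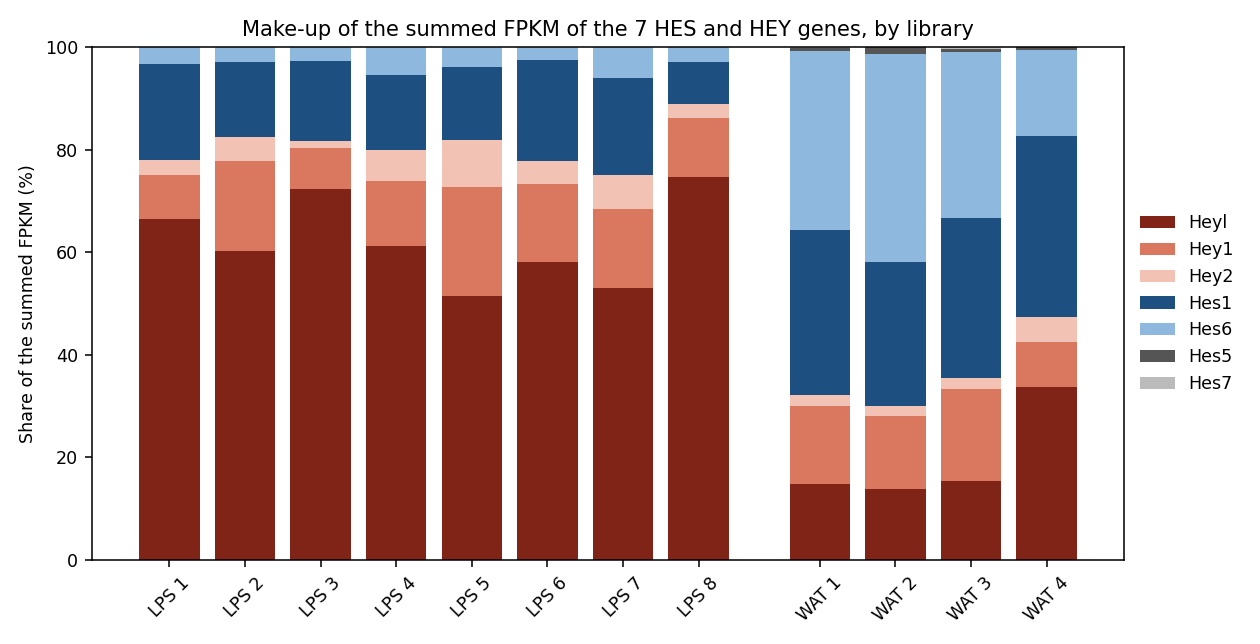
Share (%, vertical axis) of each HES and HEY gene in the summed FPKM of the 7 genes, 1 bar per library, with the 8 LPS libraries left of the 4 WAT libraries. Heyl takes 51.4% to 74.7% of each LPS bar, and Hes1 and Hes6 together take most of the bars of WAT 1, WAT 2 and WAT 3.

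The level per unit of the Notch1 row also differed, as ratios of FPKM within a library. Heyl stood at 1.53 to 3.48 times the level of Notch1 in LPS, against 0.107 to 0.455 times in WAT. Hey1 stood at 0.272 to 0.632 times in LPS and 0.109 to 0.189 times in WAT, and Nrarp at 0.470 to 1.64 times in LPS and 0.318 to 0.411 times in WAT. For these 3 genes the ratios did not overlap between the groups, but the share of all rows that would do the same was not computed. The ratio of Hes1 overlapped, at 0.385 to 0.739 times in LPS and 0.216 to 0.476 times in WAT, as did that of Hey2, at 0.0459 to 0.272 times in LPS and 0.0140 to 0.0662 times in WAT. The ratio of Hes6 did not overlap either and was lower in LPS, at 0.0877 to 0.213 times, than in WAT, at 0.225 to 0.349 times. The level of Hes6 itself overlapped between the groups and was not called, while Notch1, the divisor, was called higher in LPS. A gene of unchanged level has a lower ratio where Notch1 is higher, so this ratio does not show a fall of Hes6.

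Among the 8 tumours, the level of the 6 genes at 1 FPKM or more in at least 4 of them was set against Notch1 on log2(FPKM + 1), with exact permutation of all 40320 pairings. No relation passed adjustment over the 6. Heyl had Pearson r = 0.82 (exact permutation p = 0.0135, adjusted p = 0.0808) and Spearman rho = 0.64 (p = 0.0962, adjusted p = 0.265). Hes1 had r = 0.77 (exact permutation p = 0.0270, adjusted p = 0.0809) and rho = 0.76 (p = 0.0368, adjusted p = 0.221). These were the 2 genes with r of at least 0.7, which 4.56% of 13279 rows reached. Without LPS 2 and LPS 7, the libraries farthest from the median of Notch1, r was 0.83 for Heyl and 0.91 for Hes1. The low level of LPS 5 enters both axes, and with median-ratio scaling r was 0.74 for Heyl and 0.68 for Hes1 (adjusted p = 0.173 for both). Without LPS 8 the relation of Heyl passed, with r = 0.94 (exact permutation adjusted p = 0.0190, n = 7). The other 4 genes had r = 0.53 (Nrarp), 0.44 (Hey1), -0.05 (Hes6) and -0.24 (Hey2), with exact permutation p from 0.174 to 0.902. For Nrarp r was -0.01 without LPS 2 and LPS 7, so its value rests on those libraries.

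**Figure D3:**
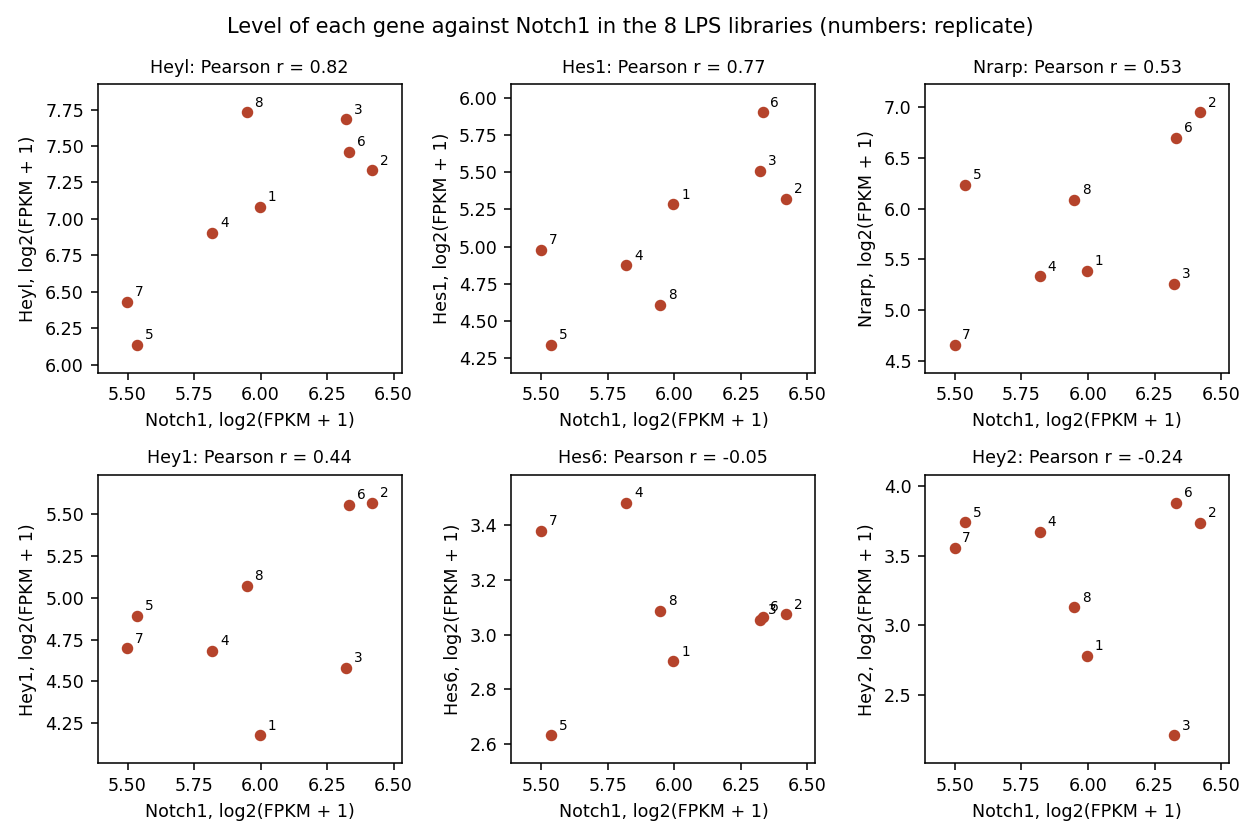
Level of 6 genes (vertical axes) against Notch1 (horizontal axes), both as log2(FPKM + 1), in the 8 LPS libraries; each point is a library and its number the replicate. Heyl and Hes1 have the highest Pearson r, 0.82 and 0.77, and Hey2 and Hes6 lie below 0.

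Age within LPS gave no call. No row of 13280 passed adjustment for a slope per month (limma, 0% called), and 1.72% had an unadjusted p below 0.05. Of the 6 genes tested, Hey1 and Nrarp had such an unadjusted p. The slope of Hey1 was -0.34 ± 0.12 log2 per month (SE). The slope of Nrarp was -0.53 ± 0.19 log2 per month (SE), and the limma adjusted p was 1.00 for both genes. The highest levels of both genes were in LPS 2 and LPS 6, the 2 tumours from animals of 9 months. Hey1 measured 46.4 and 46.0 FPKM there and at most 32.7 FPKM in the other tumours, and Nrarp 122 and 103 FPKM there and at most 74.4 FPKM in the others.

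The tumours did not rank alike for all genes. Over the 8 LPS libraries the highest Pearson r between 2 of these genes was 0.83, between Hey1 and Nrarp, and the lowest was -0.46, between Hey2 and Heyl. LPS 3 shows the last contrast, with the lowest Hey2 (3.63 FPKM) and the second highest Heyl (204 FPKM). These are descriptions over 8 libraries, and within each library all genes share its depth and scaling, which can differ between libraries. By the same measure, over 7982 protein-coding rows with a mean of at least 5 FPKM in LPS, the most alike rows were Mad1l1, Cap2 and Ap3b1 for Heyl (r = 0.97 for each), Top2b, C1qtnf6 and Psmb10 for Hes1 (r = 0.95 to 0.97), Gpcpd1, Glo1 and Trp53i11 for Hey1 (r = 0.92 to 0.95), Anxa3, Homer1 and B4galt6 for Hey2 (r = 0.96 to 0.97), Pomp, Ndufa8 and Phlda1 for Nrarp (r = 0.92 to 0.94) and Bloc1s3, Zrsr1 and Rnd3 for Hes6 (r = 0.96 to 0.98). These are the highest of 7982 values of r over only 8 libraries, and no chance level was computed for them. No HES or HEY gene was among these rows, which says little about the family with so few rows kept per gene.

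The rest of the pathway moved both ways. Of 73 other genes in 10 lists, 64 were tested, and 20 of them (31.2%) were higher and 15 (23.4%) lower in LPS, beside 18.9% and 27% of all rows. Their median log2 difference was 0.10. Leaving out WAT 3 left 9 lower genes, and leaving out WAT 1, WAT 2 or WAT 4 left 10. With only 3 WAT libraries, rows such as Dtx1 and Lef1 that reach 1 FPKM in WAT alone no longer meet the filter. Without WAT 1 and WAT 4 together, 15 were higher and 5 lower, and among the genes named here Adam10, Kat2b, Maml2, Cdkn1c, Dll1, Notch2, Psen2, Sirt1 and Tle1 were then not called (limma adjusted p = 0.0540 to 0.134).

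At the receptors and ligands, 2 of 4 receptor genes were higher and 1 lower, and of 7 tested ligand and Fringe genes 1 was higher and 4 lower. Notch3, itself a Notch target, averaged 210 ± 87.3 FPKM in LPS (SD, n = 8) and 27.2 ± 10.4 FPKM in WAT (SD, n = 4), and the ligand gene Jag1 averaged 56.6 FPKM in LPS and 14.3 FPKM in WAT. Notch1 rose by the levels given above (log2 difference 1.07, limma adjusted p = 0.000703). Notch2 averaged 11.9 FPKM in LPS and 19.2 FPKM in WAT, a call that was lost without WAT 2 (limma adjusted p = 0.0596), without WAT 4 (0.0502) and with the replicate block (0.136). Notch4 was not called, at 19.7 ± 7.59 FPKM in LPS (SD, n = 8) and 13.2 ± 2.05 FPKM in WAT (SD, n = 4). Mfng and Lfng, the Fringe sugar transferases that modify Notch receptors, were lower, Mfng with 3.28 FPKM in LPS and 30.5 FPKM in WAT and Lfng with 5.62 FPKM in LPS and 20.6 FPKM in WAT. Dll4 was not called, at 8.20 ± 5.31 FPKM in LPS (SD, n = 8) and 5.44 ± 0.856 FPKM in WAT (SD, n = 4).

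Of 8 genes of receptor processing, 4 were higher and 1 lower. Aph1b, a subunit of the gamma-secretase that frees the intracellular domain, averaged 10.5 FPKM in LPS and 2.13 FPKM in WAT, and Adam10, the protease that cuts before it, 35.2 FPKM in LPS and 21.8 FPKM in WAT. Psen2 averaged 15.2 FPKM in LPS and 26.9 FPKM in WAT, but its call (limma adjusted p = 0.0355) was lost in 9 of the 12 fits without 1 library (adjusted p = 0.0512 to 0.0888: LPS 2, 3, 4, 5, 6 and 8 and WAT 1, 2 and 3). Adam17 was not called, at 21.6 ± 2.54 FPKM in LPS (SD, n = 8) and 19.3 ± 1.70 FPKM in WAT (SD, n = 4). In the nuclear complex 2 of 7 genes were higher and 1 lower. Rbpj, the DNA-binding partner, was not called, at 8.83 ± 1.43 FPKM in LPS (SD, n = 8) and 7.57 ± 0.516 FPKM in WAT (SD, n = 4), nor was the acetyltransferase gene Ep300, at 12.5 ± 2.06 FPKM in LPS (SD, n = 8) and 12.9 ± 1.49 FPKM in WAT (SD, n = 4). The Mastermind gene Maml2, in a row joined with another name, averaged 9.05 FPKM in LPS and 4.38 FPKM in WAT, and Snw1, a co-activator of NICD, 22.6 FPKM in LPS and 14.7 FPKM in WAT. The acetyltransferase gene Kat2b averaged 14.2 FPKM in LPS and 25.0 FPKM in WAT.

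Of 11 modulators of the pathway, 3 were higher and 3 lower, and just 1 was lower when WAT 1, WAT 3 or WAT 4 was left out. Dtx3, of the Deltex ubiquitin ligase family, averaged 217 ± 64.7 FPKM in LPS (SD, n = 8) and 15.7 ± 2.02 FPKM in WAT (SD, n = 4), with a limma adjusted p = 6.93e-08. Its relatives went the other way: Dtx1, known as a Notch target in lymphocytes, averaged 0.394 FPKM in LPS and 3.13 FPKM in WAT, and Dtx2 5.25 FPKM in LPS and 15.0 FPKM in WAT. Numb, an inhibitor of Notch, averaged 19.9 FPKM in LPS and 11.1 FPKM in WAT. Itch, a ubiquitin ligase, was not called, at 24.5 ± 3.63 FPKM in LPS (SD, n = 8) and 25.4 ± 2.74 FPKM in WAT (SD, n = 4).

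Among the known partners of Nrarp, Notch1 was higher, Rbpj was not called and Lef1, a transcription factor of Wnt signalling that Nrarp protein can stabilise, was lower. Lef1 measured 0.0544 FPKM at the lowest, 0.363 at the median and 0.767 at the highest in LPS, against 15.9 FPKM at the lowest and 27.5 FPKM at the highest in WAT (log2 difference -3.96, limma adjusted p = 2.10e-09). Lef1 is also a gene of lymphocytes, and 5 of 6 lymphocyte markers were lower in LPS, with a summed level of 11.7 to 90.2 FPKM in LPS and 112 to 209 FPKM in WAT. Their part in the values of Lef1, Dtx1 and the Fringe genes was not tested.

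Of 15 genes in a list of HES or HEY co-repressors and members of their families, 3 were higher, 2 lower and 10 not called. Aes, a short Groucho-family protein, was the most abundant of those not called, at 86.8 ± 31.7 FPKM in LPS (SD, n = 8) and 101 ± 4.03 FPKM in WAT (SD, n = 4). Tle6 averaged 6.44 FPKM in LPS and 1.20 FPKM in WAT, and Tle3, a Groucho protein known to promote fat cell differentiation, 10.2 FPKM in LPS and 27.2 FPKM in WAT. Tle1 averaged 26.9 FPKM in LPS and 14.9 FPKM in WAT, but the call was lost without WAT 2, WAT 3 or WAT 4 (limma adjusted p = 0.0576, 0.0514 and 0.0706) and with the replicate block (0.142). The deacetylase gene Sirt1 averaged 7.47 FPKM in LPS and 11.1 FPKM in WAT, a call lost after quantile normalization (limma adjusted p = 0.0537).

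The other repressors of the same structural family were low or uneven. Hes2, Hes3 and Helt were below 1 FPKM in all libraries and not tested. Bhlhe40, a stress and clock factor, was not called, at 11.3 ± 11.7 FPKM in LPS (SD, n = 8) and 5.93 ± 2.65 FPKM in WAT (SD, n = 4). Bhlhe41 averaged 0.612 FPKM in LPS and 1.42 FPKM in WAT, and its lower call was lost with median-ratio scaling (limma adjusted p = 0.0505) and quantile normalization (0.361).

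Of 9 genes that HES or HEY proteins are known to repress in some tissue, 4 were tested, 1 of them higher and 2 lower. Among those not tested, the neural and endocrine genes Neurog2, Neurog3 and Atoh1 and the cardiac factor gene Gata4 were below 1 FPKM in all libraries. Dlk1, an inhibitor of fat cell differentiation, averaged 173 ± 117 FPKM in LPS (SD, n = 8) and 8.40 ± 3.57 FPKM in WAT (SD, n = 4), a rise. Cdkn1c, a cell cycle inhibitor, was lower, with 3.66 FPKM in LPS and 10.9 FPKM in WAT, and lost its call with the replicate block (limma adjusted p = 0.0901). The ligand gene Dll1 averaged 1.65 FPKM in LPS and 3.63 FPKM in WAT, and lost its call without WAT 2 (limma adjusted p = 0.0701) or WAT 3 (0.0613). Cdkn1b, the inhibitor p27, was not called, at 20.3 ± 5.54 FPKM in LPS (SD, n = 8) and 23.2 ± 2.87 FPKM in WAT (SD, n = 4). Of 8 other Notch targets, 5 were higher and 1 lower. Pdgfrb, the pericyte receptor for platelet-derived growth factor, averaged 436 FPKM in LPS and 23.0 FPKM in WAT, and Cd44 was not called, at 12.2 ± 4.53 FPKM in LPS (SD, n = 8) and 11.8 ± 2.50 FPKM in WAT (SD, n = 4).

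**Figure D4:**
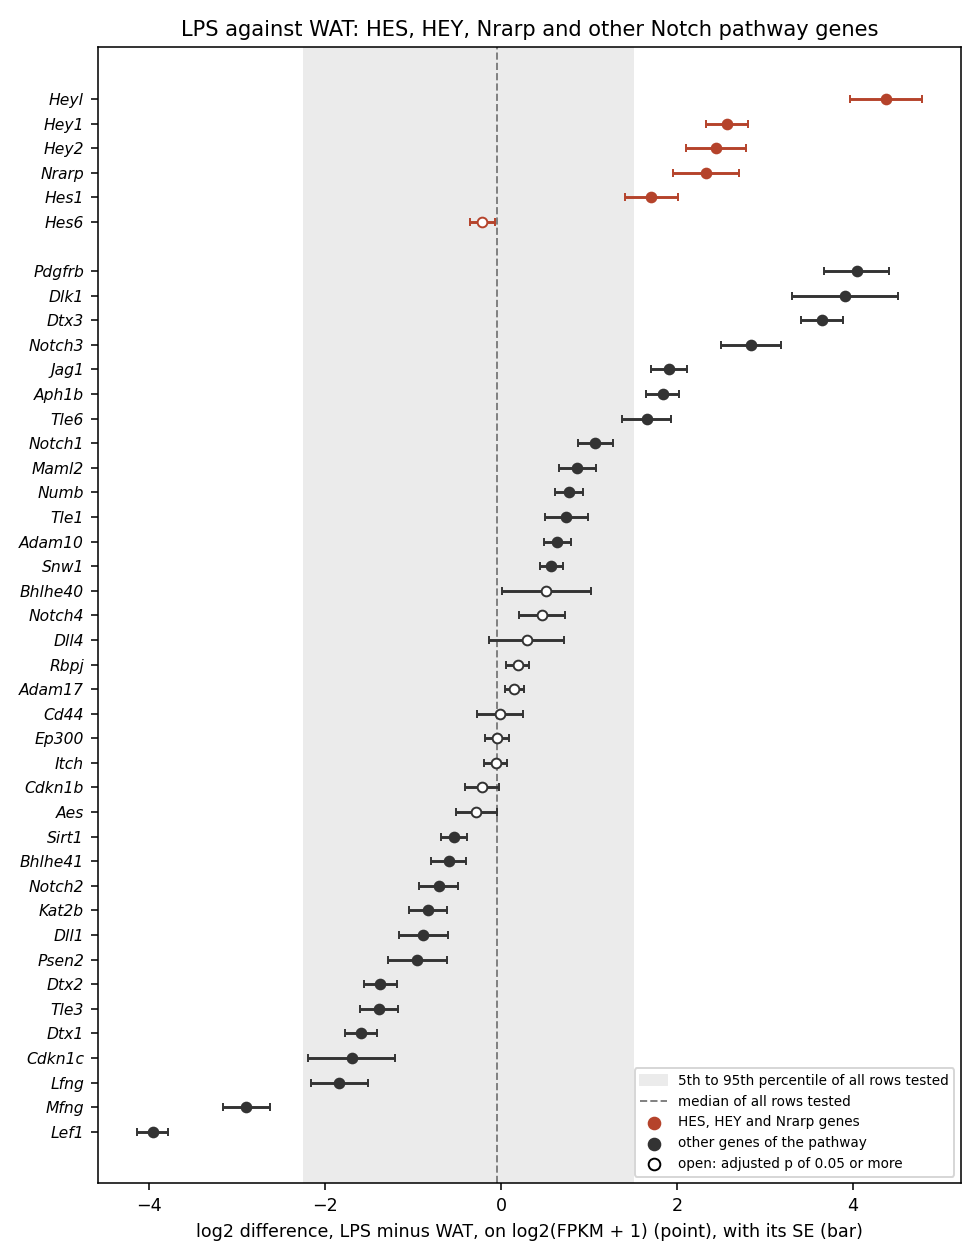
Log2 difference of LPS minus WAT on log2(FPKM + 1) (horizontal axis, point) with its SE (bar) for the tested HES, HEY and Nrarp genes (top) and the other named pathway genes (below); open points were not called, and the grey band spans the 5th to the 95th percentile of all rows tested. The points of Heyl, Hey1, Hey2, Nrarp and Hes1 lie to the right of the band, and that of Hes6 lies within it.

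Most pericyte and smooth muscle markers were higher in LPS, as the 5 genes above were, and most endothelial markers were lower or not called. Of 13 pericyte and smooth muscle markers, a list that includes the Notch targets Notch3 and Pdgfrb, 11 were higher and none lower, with a median log2 difference of 4.04 and a summed level of 4137 to 8575 FPKM in LPS and 306 to 375 FPKM in WAT. All 13 were above 0 in every library. Of 14 endothelial markers 2 were higher and 8 lower, with a summed level of 332 to 567 FPKM in LPS and 440 to 584 FPKM in WAT. Of 6 arterial endothelial markers, 2 were higher (Gja4 and Efnb2), 1 was lower (Sox17) and 3 were not called (Gja5, Bmx and Dll4), with a summed level of 98.5 to 294 FPKM in LPS and 22.0 to 28.6 FPKM in WAT. Gja4, a gap junction gene, made up most of the LPS sum, with a mean of 166 FPKM in LPS and 5.70 FPKM in WAT, while Sox17, a transcription factor, averaged 1.78 FPKM in LPS and 5.64 FPKM in WAT. The part of these cells in the levels of Heyl, Hey1, Hey2, Nrarp and Hes1 was not tested.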

How the data were processed

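Per the labels, stranded libraries were prepared from total RNA of frozen tissue after removal of ribosomal RNA. The authors deposited FPKM values, 1 per gene locus and library. The submitters' processing notes name Trimmomatic, Bowtie2, TopHat2 2.1.0, Cufflinks 2.2.1, Cuffdiff 2.2.1 and build GRCm38, with no role or order. Whether strand was used in counting, and any further scaling, are not given in the sources used here. Starts were counted from 1.

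LPS and WAT were compared by two-sided moderated tests in limma 3.58.1 (R 4.3.3; trend and robust options) on log2(FPKM + 1). A row was tested if 4 or more of the 12 libraries reached 1 FPKM, and p-values were Benjamini-Hochberg adjusted over all 14821 such rows. Hes5 and Hes7, below that filter, were tested by exact permutation of the difference of group means of log2(FPKM + 1) (scipy 1.17.1). The pairings with Notch1 were permuted separately. A library far from the others of its group was picked by the Dixon ratio of gap to range in FPKM. The fit was also run on simulated normal values with few changed rows. That setting differs from these data, and the run is not used as support here. The value of 1 fragment is the 5th percentile of non-zero FPKM times length over 2154 genes with 1 transcript longer than 2 kb. From each list the 2 largest calls each way and the most abundant gene not called were named; genes below 1 FPKM, Dtx1, Lef1, Myh11, Cspg4, Mcam and the arterial markers were also named after their values were seen. The genes and lists were chosen with earlier results of these data known. Some list genes are not reported here by name.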

Additional observations from a re-analysis of the deposited data

Results flagged for a closer look

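A library far from the others of its group was found in 4 of the 16 sets of values (8 genes, 2 groups). In 3 of them the library was WAT 4. For independent sets of normally distributed values, chance gives such a library in about 1 in 20 sets. The values here are FPKM, and the 3 sets with WAT 4 share 1 library, so they are not 3 separate events. The rate also does not hold for the 4th set, where any value above 0 stands apart from libraries listed at 0. Heyl stood at 18.0 FPKM in WAT 4, against 3.20 to 3.99 FPKM in the other WAT libraries. Hey2 stood at 2.62 FPKM in WAT 4, against 0.419 to 0.522 FPKM. Hes1 stood at 18.8 FPKM in WAT 4, against 6.45 to 8.07 FPKM. The 4th was Hes5, at 0.299 FPKM in LPS 8 and listed at 0 in the other 7 tumours.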

How the results depend on the processing

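The calls of Heyl, Hey1, Hey2, Nrarp and Hes1 and the lack of a call for Hes6 held in all 19 alternatives: another pseudocount, no filter, 2 scalings, array quality weights, a replicate block, each of the 12 libraries left out, and WAT 1 and WAT 4 left out together. The last was chosen after the data were seen. With no filter on low values 1 of the 8 genes (Hes5) was called lower, against 0 with it. Without WAT 1 and WAT 4, 1402 rows were higher and 2114 lower, against 2806 and 4007 with them, and the fit then rests on fewer samples. Quantile normalization moved the median log2 difference of all rows from -0.05 to 0.10 and the share of calls that were lower to 45.2%, against 58.8% as deposited. Relations to Notch1 that passed numbered 0 to 1 without 1 LPS library. Same-numbered LPS and WAT libraries share only a number: the correlations of their deviations were -0.02, 0.02, 0.09 and 0.03. With the number as a replicate block (replicates 1 to 4), 5 of the 8 genes were called higher, as without it, and 2562 rows were higher and 3387 lower. Fragment totals are unknown, so no counting interval is given for Hes5 or Hes7.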
